A study of Homo sapiens with 5 samples.

Results

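TMEM107 and METTL12 are protein-coding genes that each hold the gene of a small nucleolar RNA, and they were selected by symbol from the exon and intron count tables because their counts may come from that embedded RNA. They are 2 genes of 23340 in the exon table and 22009 in the intron table, and both are listed in both tables. They were picked with their values in view, over all libraries, so their own values below are given as a description without a test. The series profiled ribosome-depleted total RNA of A549, an epithelial cell line from a human lung carcinoma, after transfection by Lipofectamine. The 5 libraries are 23N randomer oligo at 50 nM for 9 h and for 16 h, control oligo at 50 nM for 9 h and for 16 h, and mock transfection with Lipofectamine alone for 16 h. With 1 library in each group, a value at one time has no replicate to check it. The sources used here do not say whether the times came from separate cultures.

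TMEM107 encodes a small membrane protein of the transition zone, the gate at the base of the primary cilium. METTL12, now also called CSKMT, encodes a mitochondrial methyltransferase that modifies a lysine of citrate synthase. Small nucleolar RNAs guide chemical modification or cleavage of ribosomal RNA, and most human ones are cut out of introns of host genes after splicing. SNORD118, also known as U8, is an unusual box C/D RNA: it is transcribed from its own promoter, receives a cap and is needed for maturation of the large-subunit ribosomal RNAs. SNORA57 is a box H/ACA RNA, a class that guides the conversion of uridine to pseudouridine.

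In the GENCODE annotation, TMEM107 lies on the minus strand of chromosome 17 and SNORD118, of 134 bases, on the same strand inside it. The small RNA falls within an exon of 1 of the 6 coding transcripts of TMEM107, and the other coding transcripts do not reach it. METTL12 lies on the plus strand of chromosome 11, where SNORA57, of 149 bases and on the same strand, sits in an intron of 314 bases of its 1 coding transcript. In this annotation the small RNA thus lies in an exon of 1 TMEM107 transcript and in an intron of METTL12. The deposited counts were made on hg19 and may rest on other gene models. Whether the counted TMEM107 exons include SNORD118 was therefore not tested. The sequences are shown because they carry the signatures of the 2 RNA classes. SNORA57 is given whole from GENCODE, 5′ to 3′, with the ACA box in capitals. It ends 3 bases before the 3′ end, as is typical of the H/ACA class. Of SNORD118 only the bases around its boxes are given, with the match to the C box motif TGATGA and the last match to the D box motif CTGA in capitals.
SNORA57: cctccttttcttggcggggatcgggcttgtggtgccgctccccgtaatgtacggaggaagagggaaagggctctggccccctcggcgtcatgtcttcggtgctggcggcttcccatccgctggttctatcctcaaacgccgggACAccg
SNORD118 bases 49 to 66: agaacaTGATGAttggag
SNORD118 bases 119 to 134: attgctcctgtCTGAt
On the transcript strand, SNORD118 held 1 match to TGATGA and 2 matches to CTGA, and SNORA57 held 0 of either. A match describes the letters only.

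Exon counts per library summed to between 1476223 and 2629053 and intron counts to between 603142 and 1947593. Introns took 49.7% and 56.9% of assigned counts after randomer at 9 h and 16 h, against 22.0% and 22.9% after control oligo and 23.6% after mock transfection. Of 8 epithelial and A549 markers, 7 and 8 were above 0 after randomer at 9 h and 16 h, against 5 and 6 after control oligo and 5 after mock transfection. KRT8, KRT18, ALDH1A1, AKR1B10 and, at 14 to 24 counts, CDH1 were read in every library. KRT19 had 7 and 15 counts after randomer and 0 elsewhere, KRT7 14 and 19 after randomer and at most 3 elsewhere, and EPCAM 4 in 1 library and 0 in the others. Their summed level was 4030 and 2852 CPM (counts scaled to the exon total of each library) after randomer, against 5427 and 5308 after control oligo and 4576 after mock transfection. Of 11 markers of blood, endothelial, stromal and liver cells, 4 and 5 were above 0 after randomer at 9 h and 16 h, against 2 and 1 after control oligo and 1 after mock transfection. The summed level of these was 198 and 160 CPM after randomer, against 194 and 106 after control oligo and 145 after mock transfection, most of it from the collagen gene COL1A1. PTPRC, CD3E, LYZ, COL1A2 and HBB were at 0 in all 5 libraries. The part of these marker levels in the results was not tested.

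TMEM107 showed a high exon count in the randomer libraries and a low one elsewhere. It had 826 exon counts after 9 h of randomer and 1063 after 16 h, against 37 and 76 after control oligo and 31 after mock transfection. Scaled to library size with TMM factors (a trimmed mean that sets libraries to a common level), these were 433 and 750 CPM after randomer, against 13.9 and 28.8 after control oligo and 16.7 after mock transfection. Both randomer libraries lay far above the other 3, with no overlap. How many of all exon rows show such a separation was not counted. In bulk RNA, a change in the number of cells that express a gene and a change in RNA per cell cannot be told apart. Among all exon rows TMEM107 ranked 227th and 88th by count after randomer, against 7774th and 5760th after control oligo and 7217th after mock transfection.

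The log2 ratio of randomer over control oligo was 4.94 at 9 h, with an exact 95% counting interval of 4.48 to 5.48, and 4.70 at 16 h, with an interval of 4.37 to 5.06. These correspond to 30.7-fold and 25.9-fold higher counts. All such intervals cover counting error only and treat every count as a separate molecule, which PCR copies are not. Over mock cells at 16 h the log2 ratio was 5.47 (4.98 to 6.06). Of 6593 genes that averaged 50 exon counts or more, 9.09% were at least 2-fold higher after randomer at 9 h and 11.7% at 16 h over control oligo, and 13.3% over mock. TMEM107 stood 21st and 29th from the top of those genes at the 2 times. The mean includes the randomer libraries, so rows high only there can pass it, and TMEM107 reached it through them. The ranks and shares are a description only.

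The remaining libraries also differed among themselves. The TMEM107 exon level was 2.05-fold higher in control oligo at 16 h than at 9 h, a log2 ratio of 1.04 (0.46 to 1.66). It was 1.71-fold higher in control oligo than after mock transfection at 16 h, a log2 ratio of 0.77 (0.17 to 1.44). Between randomer at 16 h and at 9 h the log2 ratio was 0.79 (0.66 to 0.93). Levels fell in the order randomer at 16 h, randomer at 9 h, control oligo at 16 h, mock, control oligo at 9 h. The counting interval of mock (11.3 to 23.7 CPM) overlapped those of both control oligo libraries. With control oligo at 16 h (22.7 to 36.0 CPM) it overlapped only at the edge.

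**Figure D1:**
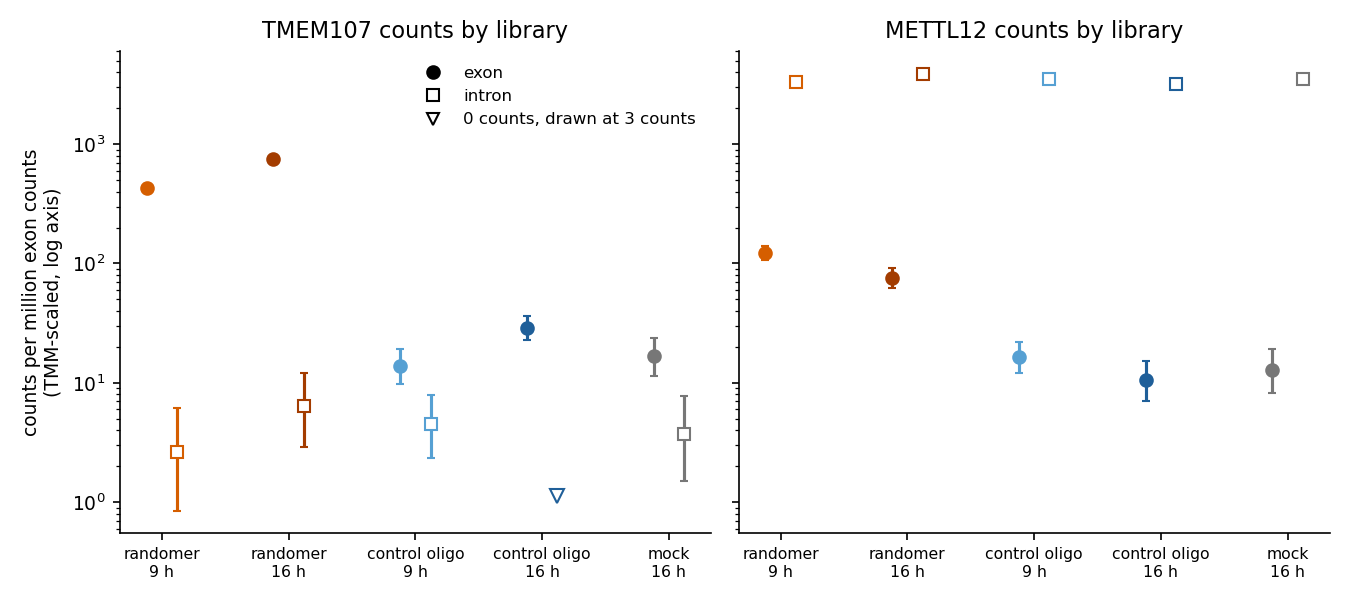
Exon counts (filled circles) and intron counts (open squares) of TMEM107 and METTL12 in each library, as CPM of the exon library size after TMM scaling, on a log axis, with exact 95% counting intervals. TMEM107 exons reach 433 and 750 after randomer against 13.9 to 28.8 elsewhere, while METTL12 introns stay between 3195 and 3859 in all 5 libraries; the open triangle is a library with 0 counts drawn at 3 counts.

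Introns of TMEM107 did not show the same pattern. They had 5 and 9 counts after randomer at 9 h and 16 h, against 12 and 0 after control oligo and 7 after mock transfection. The groups overlap, and all of these counts are close to the limit of 3 counts that a count of 0 allows. At 9 h the intron log2 ratio was -0.71, with an interval of -2.64 to 0.82. At 16 h the 9 counts after randomer, set against the 3-count floor of the control oligo library, gave a ratio of at least 5.60-fold. Counting error on those 9 counts is not in that ratio, and the exact interval starts lower, at a log2 ratio of 1.88.

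The share of TMEM107 reads that fell in introns was therefore low after randomer. It was 0.602% (exact Clopper-Pearson 95% interval 0.196% to 1.40%) at 9 h and 0.840% (0.385% to 1.59%) at 16 h after randomer. With control oligo it was 24.5% (13.3% to 38.9%) at 9 h and 0% (up to 4.74%) at 16 h, and after mock transfection 18.4% (7.74% to 34.3%). Randomer lay below control oligo at 9 h and below mock cells beyond counting error, but not below control oligo at 16 h, which had no intron read. Gene models limit this share: over coding transcripts TMEM107 has 2907 exon bases and 256 intron bases in GENCODE. Per kilobase of exon the counts were 284 and 366 after randomer, against 12.7 and 26.1 after control oligo and 10.7 after mock transfection.

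SNORD118 has no row in either table. The TMEM107 exon counts can therefore not be set beside a count of the small RNA itself, and which reads of the TMEM107 row lie on SNORD118 was not tested. Neither neighbouring coding gene was near the TMEM107 difference. VAMP2, the vesicle SNARE gene on one side, had 5 and 14 exon counts after randomer, against 6 and 8 after control oligo and 9 after mock transfection. C17orf59, also named BORCS6 and a subunit of the lysosome-positioning BORC complex, lies on the other side. It had 22 and 38 exon counts after randomer, against 48 and 50 after control oligo and 40 after mock transfection (log2 change -0.06, SE 0.75, edgeR adjusted p = 0.981).

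METTL12 was the reverse: nearly all of its reads were intronic. It had 6314 and 5466 intron counts after randomer at 9 h and 16 h, against 9278 and 8442 after control oligo and 6582 after mock transfection. It was the highest row among introns in every library except randomer at 16 h, where it was the 3rd. METTL12 alone took 0.357% and 0.281% of all intron counts after randomer, against 1.25% and 1.09% after control oligo and 1.09% after mock transfection. Its intron density was 8275 and 7164 counts per kilobase after randomer, against 12160 and 11064 after control oligo and 8626 after mock transfection, over 763 intron bases.

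These intron counts followed the SNORA57 row of the exon table almost read for read. SNORA57 had 6369 and 5705 counts after randomer at 9 h and 16 h, against 9353 and 8558 after control oligo and 6662 after mock transfection. The METTL12 intron count amounted to 99.1% and 95.8% of the SNORA57 count after randomer, against 99.2% and 98.6% after control oligo and 98.8% after mock transfection. It was the smaller of the pair in all 5 libraries, by 55 and 239 counts after randomer, by 75 and 116 after control oligo and by 80 after mock transfection. The tables give no read positions, so which reads entered both rows was not tested.

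**Figure D2:**
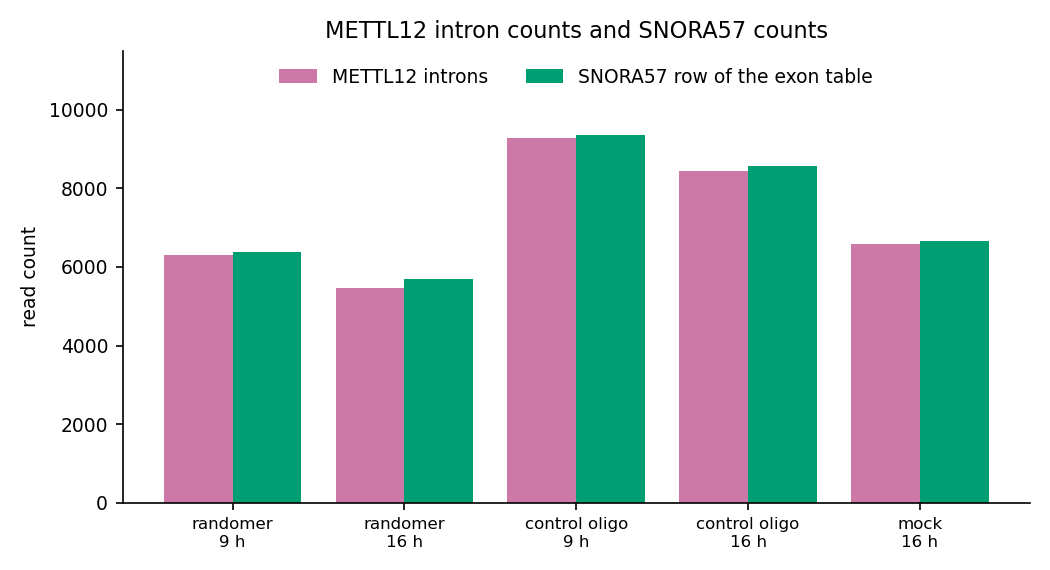
Read counts of METTL12 introns and of the SNORA57 row of the exon table, side by side for each of the 5 libraries. The bars of a pair differ by 0.802% to 4.19% of the SNORA57 count.

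Scaled to exon library size, the METTL12 intron level was close to flat. It was 3307 and 3859 CPM after randomer at 9 h and 16 h, against 3487 and 3195 after control oligo and 3539 after mock transfection, and the groups overlap. The log2 ratio of randomer over control oligo was -0.08 (-0.12 to -0.03) at 9 h and 0.27 (0.22 to 0.32) at 16 h, and over mock it was 0.12 (0.07 to 0.18). Introns in general were higher after randomer. The median log2 ratio of 5794 genes that averaged 50 intron counts or more was 1.66 at 9 h and 2.12 at 16 h, and 71.2% and 79.1% of them were at least 2-fold higher. The mean includes the randomer libraries, so introns high only there can pass it. METTL12 stood 1.74 and 1.85 below those medians. Scaled within the intron table, which removes most of the general rise, its log2 ratios were -1.51 and -1.59, so the direction at 16 h depends on the scaling. SNORA57 itself had log2 ratios of -0.08 (-0.12 to -0.03) and 0.31 (0.27 to 0.36).

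Exons of METTL12 behaved differently from its introns. They had 234 and 108 counts after randomer at 9 h and 16 h, against 44 and 28 after control oligo and 24 after mock transfection. Both randomer libraries lay above the other 3, and how many of all exon rows do so was not counted. The log2 ratio of randomer over control oligo was 2.88 (2.42 to 3.39) at 9 h and 2.83 (2.24 to 3.50) at 16 h, and over mock at 16 h it was 2.54 (1.91 to 3.27). These are 7.34-fold, 7.10-fold and 5.81-fold higher counts. Of the 6593 genes that averaged 50 exon counts or more, METTL12 stood 51st at 9 h and 88th at 16 h from the top over control oligo. At least 2-fold higher were 9.09% and 11.7% of those genes. METTL12 too reached that mean through the randomer libraries. The log2 ratio of randomer at 16 h over randomer at 9 h was -0.68 (-1.03 to -0.35). Between control oligo at 16 h and mock the log2 ratio was -0.29 (-1.12 to 0.57), which includes 0. Over 2037 exon bases the density was 115 and 53.0 counts per kilobase after randomer, against 21.6 and 13.7 after control oligo and 11.8 after mock transfection.

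The intron-to-exon ratio of METTL12 was accordingly lower after randomer. Introns held 96.4% (exact 95% interval 95.9% to 96.9%) and 98.1% (97.7% to 98.4%) of its counts after randomer at 9 h and 16 h. They held 99.5% (99.4% to 99.7%) and 99.7% (99.5% to 99.8%) after control oligo and 99.6% (99.5% to 99.8%) after mock transfection. As a ratio there were 27.0 and 50.6 intron counts per exon count after randomer, against 211 and 302 after control oligo and 274 after mock transfection. Among 8617 genes averaging 10 counts or more in each table, METTL12 ranked 131st and 102nd by this ratio after randomer, against 5th and 2nd after control oligo and 3rd after mock transfection. The median gene moved the other way: its log2 ratio of introns over exons was 0.17 and 0.67 after randomer, against -1.21 and -1.13 after control oligo and -0.98 after mock transfection.

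**Figure D3:**
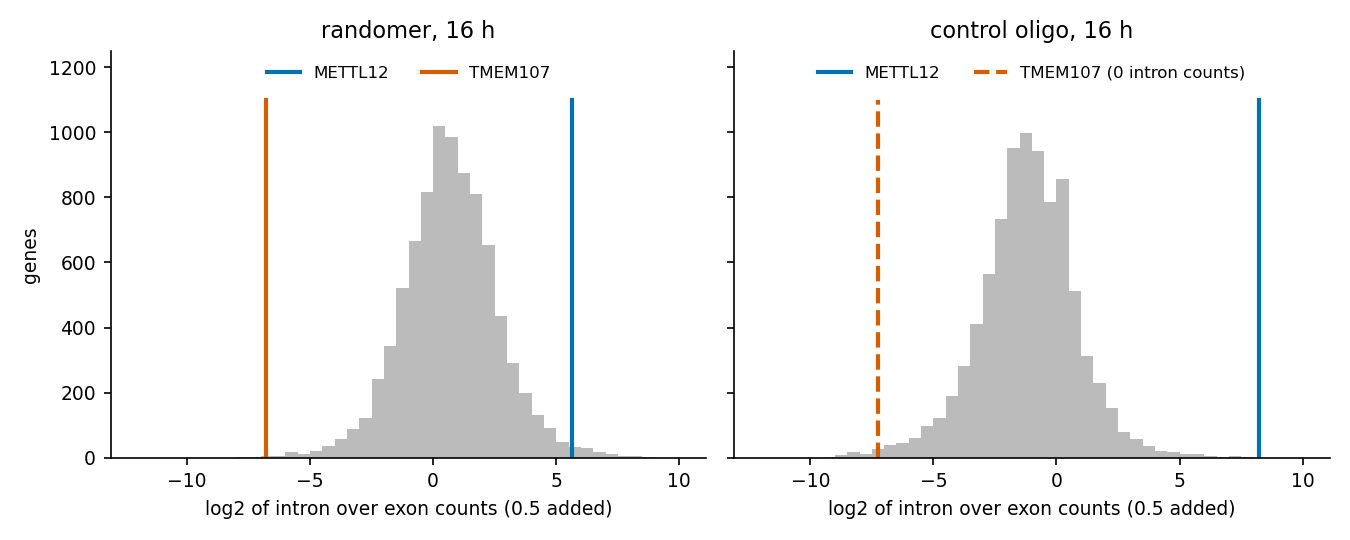
Number of genes by the log2 of intron over exon counts (0.5 added to each) after randomer and after control oligo at 16 h, for 8617 genes averaging 10 counts or more in each table. METTL12 (5.65 and 8.21) lies at the intron-rich end in both libraries and TMEM107 (-6.81 and -7.26, the second with 0 intron counts) at the exon-rich end; TMEM107 is drawn for comparison and is not among the 8617 genes, since its introns average fewer than 10 counts.

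METTL12 has closer company on the chromosome than TMEM107, and strand was not stated for the counting, so reads of overlapping genes cannot be told apart. LBHD1 overlaps it on the opposite strand and had 38 and 39 intron counts after randomer against 0 in the 3 other libraries. That row passed the count filter only through the randomer libraries, so its test could point only upwards and is not used. By introns 47.6% of all tested genes were called higher. C11orf48, an older symbol shared by LBHD1 and the adjacent C11orf98, had 96 and 99 exon counts after randomer, against 125 and 122 after control oligo and 75 after mock transfection (log2 change 0.35, SE 0.43, edgeR adjusted p = 0.728). C11orf83, also named UQCC3 and an assembly factor of respiratory complex III, lies on the other side. It had 238 and 154 exon counts after randomer, against 421 and 453 after control oligo and 321 after mock transfection (log2 change -0.50, SE 0.29, edgeR adjusted p = 0.325).

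**Figure D4:**
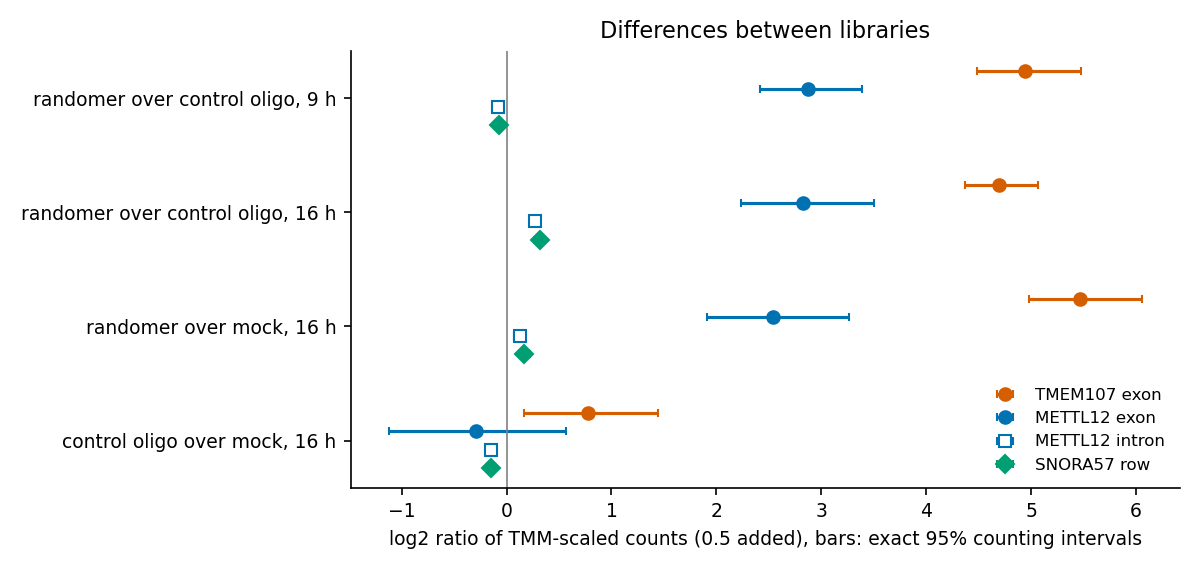
Log2 ratios between libraries of TMM-scaled counts (0.5 added) for TMEM107 exons, METTL12 exons, METTL12 introns and the SNORA57 row, with exact 95% counting intervals. TMEM107 exons lie at 4.70 to 5.47 and METTL12 exons at 2.54 to 2.88 in the 3 randomer comparisons, while METTL12 introns and SNORA57 keep between -0.15 and 0.31 in all 4.

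SNORA57 was the most abundant small nucleolar RNA row of the exon table in the 3 libraries without randomer and the 2nd in both randomer libraries, where SNORD17 led. It made up 14.8% of all counts on 370 such rows in each randomer library, against 27.6% and 25.1% after control oligo and 24.3% after mock transfection. Of 56 small RNA rows with a mean of at least 50 counts, 29 were at least 2-fold higher after randomer than control oligo at 9 h and 35 at 16 h. At least 2-fold lower were 0 and 1, and the median log2 ratios were 1.07 and 1.40. Of all 6593 exon rows with such a mean, 9.09% and 11.7% were at least 2-fold higher. The mean includes the randomer libraries, so rows high only there can pass it, which raises these counts. These counts carry no test.

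To see whether host introns usually carry the count of their small RNA, each annotated intronic pair was compared in the same way, a comparison chosen after the values were seen. Of 43 pairs whose small RNA row had a mean of at least 50 counts, the host intron count was within 5% of the small RNA count in all 5 libraries for 2, METTL12 with SNORA57 and ZBED3 with SNORA47. ZBED3, a zinc finger gene, had 1319 and 1346 intron counts after randomer, against 1426 and 1259 after control oligo and 1130 after mock transfection. SNORA47 had 1356 and 1380 after randomer, against 1464 and 1283 after control oligo and 1150 after mock transfection. In 24 pairs the host had more intron counts than the small RNA in every library. In 13 pairs the host intron count was below 50% of the small RNA count in every library. In 8 of these the host row had at most 3 intron counts in any library, 6 of them the rows EIF4A1 and SENP3-EIF4A1 with the same small RNAs, which left 5. Of 15 pairs whose host holds a single annotated small RNA, 6 were below 50% throughout. SNX5, a sorting nexin gene, had 1677 and 1093 intron counts after randomer, against 1187 and 1241 after control oligo and 942 after mock transfection. The SNORD17 within it had 9181 and 5882 after randomer, against 7053 and 6963 after control oligo and 6497 after mock transfection. The share of the small RNA count found in the host thus varied widely between hosts.

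**Figure D5:**
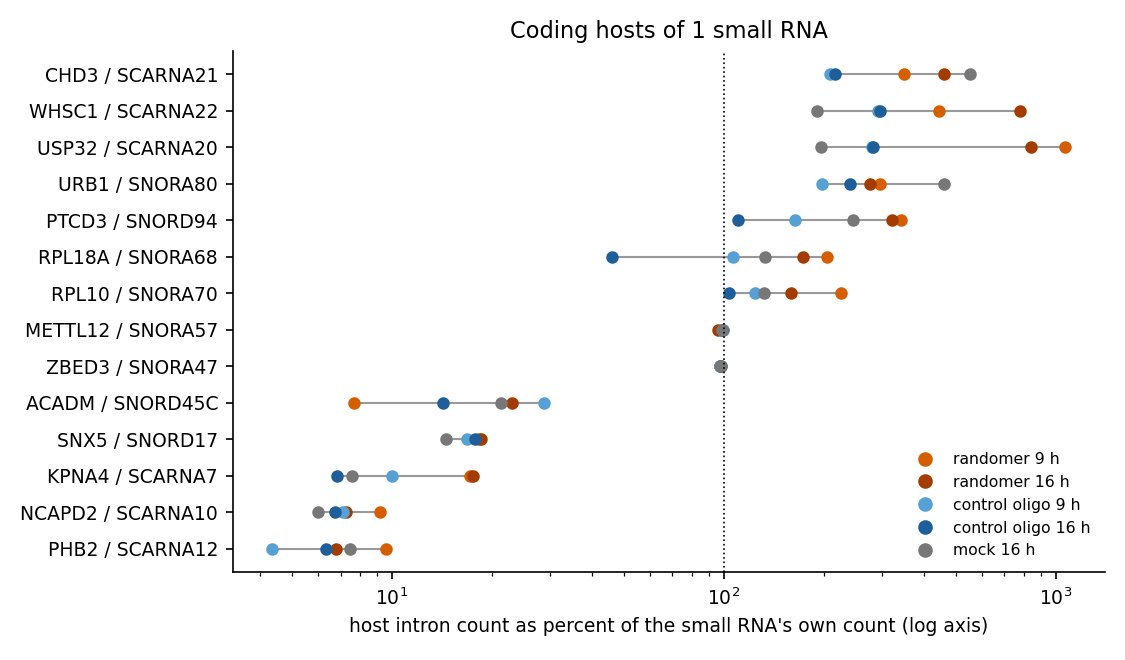
Intron count of a coding host as a percentage of the count of the small RNA inside it (log axis), for hosts that hold 1 annotated small RNA with a mean of at least 50 counts, 1 point per library; a host at 0 intron counts, OVOL2, is not drawn. METTL12 (95.8% to 99.2%) and ZBED3 (97.3% to 98.3%) lie at the dotted line of 100%, with the other hosts on either side.

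Ranked by introns over exons in the control oligo libraries, METTL12 was 3rd of 263 coding hosts, with 244 intron counts per exon count. ZBED3 (488) and TEX14, a gene of germ cell bridges, stood above it and FHIT, CATSPERB and FGF12 below. TEX14, FHIT, CATSPERB and FGF12 had 0 exon counts in the control oligo libraries, so their ratios, and the place of METTL12 next to them, rest on the 0.5 added to each count. TEX14 had 4129 and 3438 intron counts after randomer, against 120 and 95 after control oligo and 44 after mock transfection. TMEM107, at 0.110, was 239th.

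Other coding hosts moved in both directions by exons. By edgeR's quasi-likelihood test across the 4 oligo libraries, 6.90% of 11407 genes were called higher by exon counts after randomer and 3.16% lower, at a Benjamini-Hochberg adjusted p under 0.05. Of 14 tested hosts with the small RNA in an exon of a coding transcript, 2 rose and 4 fell, with a median log2 change of -0.62 against 0.04 over all genes. The 2 were TPT1 (1.70-fold, edgeR adjusted p = 0.0309), which encodes the translationally controlled tumor protein, and TRPM2, a cation channel. TRPM2 had 82 and 85 exon counts after randomer and 0 in the other 3 libraries, so it passed the count filter only through the randomer libraries. The heat shock chaperone gene HSPA8, GNB2L1 (the ribosomal scaffold RACK1) and the ribosomal protein genes RPL3 and RPL32 fell 1.70-fold to 2.22-fold. Without the time term the calls of TPT1, GNB2L1, RPL3 and RPL32 were lost, and with DESeq2 that of TRPM2. The call of TPT1 was also lost with library totals, and that of RPL32 with mock added.

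Of 183 tested hosts with small RNAs only in introns, 10 rose and 19 fell, with a median of -0.03. The 5 highest that averaged 50 counts or more were NFE2L2, the NRF2 transcription factor (2.48-fold), ZCCHC8 of a nuclear RNA decay complex (2.46-fold), the kinase WEE1 (2.34-fold), the chromatin remodeller EP400 (2.31-fold) and KIAA0907, whose log2 change of 1.13 missed the threshold (edgeR adjusted p = 0.152). At the low end SLC2A13 fell 4.30-fold and MRPL3 2.61-fold. ACADM (-1.49), TIMM23 (-1.33) and POR (-1.16) missed the threshold, at edgeR adjusted p-values of 0.05003, 0.0649 and 0.208. Without the time term 3 rose and 6 fell, and the calls of NFE2L2, ZCCHC8 and EP400 were lost. With library totals that of NFE2L2 was lost as well.

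By intron counts 47.6% of 11983 genes were called higher and 0.0501% lower. Of 13 hosts of exonic small RNAs 6 rose, and of 206 hosts of intronic small RNAs 122 rose and 0 fell. At an unadjusted p under 0.05 by edgeR, 0 of the 206 were lower as well. DESeq2, which rescales the introns, called 32 of them higher and 29 lower at an adjusted p under 0.05. The median log2 changes of the 2 groups were 0.90 and 1.82, against 1.96 over all genes. With TMM factors of the intron table the 2 groups had 3 higher and 3 lower, and 24 higher and 22 lower.

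TMEM107 acts with other proteins at the transition zone. Of 21 other listed genes, 18 were tested by exons, and 1 rose, a share near the 6.90% of all genes. CEP290, a scaffold of the transition zone, rose 2.29-fold (log2 change 1.19, SE 0.39, edgeR adjusted p = 0.0343), a call lost without the time term. It had 137 and 165 exon counts after randomer, against 90 and 125 after control oligo and 52 after mock transfection. CC2D2A (-0.68), TMEM237 (-0.42) and TCTN3 (0.13) missed the threshold, at edgeR adjusted p-values of 0.618, 0.714 and 0.914. The list's median log2 change was -0.28. By introns CEP290 (5.41-fold), NPHP4 (8.16-fold) and TCTN2 (log2 change 3.46) rose of 18, where 47.6% of all genes did, with a median of 0.94 against 1.96 over all genes. With the TMM factors of the introns, 1 was higher and 2 lower.

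The relatives of METTL12 are other protein methyltransferases. Of 15 tested protein methyltransferases of its family 0 passed by exons with edgeR (at an unadjusted p under 0.05, 1 was higher and 1 lower) and 0 with DESeq2, beside 6.90% higher and 3.16% lower over all genes. The median log2 change was -0.30. METTL21D (1.58), METTL9 (-1.69), METTL13 (-0.62) and FAM173A (-0.61) had the largest changes among members averaging 50 counts or more, with edgeR adjusted p-values of 0.121, 0.0779, 0.417 and 0.614. By introns N6AMT2, a methyltransferase of a translation elongation factor, rose of 12 (123 and 118 counts after randomer, against 0 and 31 after control oligo and 1 after mock transfection), a call lost with DESeq2. Of 18 citric acid cycle genes, the pathway of its substrate citrate synthase, FH fell 1.99-fold by exons (log2 change -0.99, SE 0.25, edgeR adjusted p = 0.00325). It was the 1 gene called, near the 3.16% lower of all genes, and the median was -0.43. IDH3B (-1.39), SDHB (-1.03) and SUCLG1 (-0.88) missed the threshold, at edgeR adjusted p-values of 0.0735, 0.312 and 0.289. By introns 7 of 18 rose, beside 47.6% of all genes, and the median log2 change was 1.31 against 1.96 over all genes. The more abundant of them were led by SDHC (12.5-fold), OGDH (10.3-fold) and SUCLG2 (6.34-fold), and 3 were higher and 1 lower with TMM factors of the intron table.

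Genes that act on the embedded RNAs were called by exons at shares near those of all genes, 6.90% higher and 3.16% lower. Of 19 tested genes of the box C/D core and of U8 maturation 1 was called. FBL, the methyltransferase fibrillarin, fell 2.51-fold by exons (log2 change -1.33, SE 0.26, edgeR adjusted p = 8.18e-05). It had 187 and 216 counts after randomer, against 801 and 827 after control oligo and 539 after mock transfection. NOP56 (0.56), RUVBL1 (-0.48) and NUDT16 (-0.45), which encodes a decapping enzyme that acts on U8, missed the threshold, at edgeR adjusted p-values of 0.200, 0.469 and 0.717. Of 9 genes of the H/ACA core and its assembly 0 passed with edgeR (at an unadjusted p under 0.05, 1 was higher and 0 lower) and 0 with DESeq2. DKC1, the pseudouridine synthase dyskerin, had a log2 change of -0.23, NHP2 -0.21, NOP10 -0.72 and PARN 0.26, with edgeR adjusted p-values of 0.658, 0.866, 0.432 and 0.823. By introns 8 of 19 and 5 of 8 rose, beside 47.6% of all genes, with median log2 changes of 1.16 and 1.90 against 1.96. Among them were RUVBL2 (20.6-fold), XPO1 (4.54-fold), TERT (29.2-fold) and PARN (6.49-fold). With TMM factors of the intron table the calls were 2 higher and 1 lower, and 2 higher and 0 lower.

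U8 acts in large-subunit ribosome production, so that pathway was set beside TMEM107. Of 30 genes tested by exons 1 rose and 1 fell, beside 6.90% and 3.16% of all genes. RN45S, the ribosomal RNA precursor, rose 1.62-fold (log2 change 0.70, SE 0.08, edgeR adjusted p = 2.25e-11), a call lost without the time term and with DESeq2. It had 140513 and 242318 counts after randomer, against 178228 and 188053 after control oligo and 225899 after mock transfection, so the groups overlap. Its share of exon counts was 7.84% and 16.4% after randomer at 9 h and 16 h, 6.78% and 7.24% after control oligo and 11.5% after mock transfection. The difference thus lay mostly at 16 h, and mock was above both control oligo libraries. The RNA was ribosome-depleted, and how far this row reflects RNA left by the depletion was not tested. Nucleolin (NCL), an abundant nucleolar protein gene, fell 2.06-fold (log2 change -1.04, SE 0.15, edgeR adjusted p = 1.09e-08). BOP1 (-1.17), NOC2L (-0.71) and NOC3L (0.70) missed the threshold, at edgeR adjusted p-values of 0.230, 0.0702 and 0.140. By introns 9 of 28 rose, beside 47.6% of all genes, with a median log2 change of 1.21 against 1.96. They were BOP1, NOC3L, RPF2, PES1, NVL, NPM1, RRP12, SKIV2L2 and XRN2. With the TMM factors of the introns, 0 were higher and 4 lower.

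Over the 5 libraries the genes most like each member were found by the distance between log2 profiles centred on their own mean, over rows that averaged 50 counts or more. For TMEM107 exons the nearest were, in order, RNU12, EGR1, ARHGEF1, ELMO3 and SNORD60, at distances of 1.07 to 1.37. The coding gene EGR1 had 317 and 741 counts after randomer, against 11 and 18 after control oligo and 11 after mock transfection. ARHGEF1 had 269 and 151 after randomer, against 12 and 13 after control oligo and 9 after mock transfection. ELMO3 had 154 and 111 after randomer, against 11 and 12 after control oligo and 3 after mock transfection. RNU12, a small nuclear RNA of the minor spliceosome, had 2054 and 2827 counts after randomer, against 183 and 278 after control oligo and 182 after mock transfection. SNORD60, a box C/D RNA, had 1658 and 802 after randomer, against 28 and 48 after control oligo and 21 after mock transfection. For METTL12 exons the nearest were LOC283624, MIR22HG, SNHG7, GDF15 and SOCS3, at distances of 0.589 to 0.944. LOC283624 had 205 and 146 counts after randomer, against 57 and 37 after control oligo and 36 after mock transfection. SNHG7, a noncoding host of small nucleolar RNAs, had 491 and 317 counts after randomer, against 95 and 104 after control oligo and 95 after mock transfection. For METTL12 introns the nearest were PRDX1, CROCCP2, AKR1B1, PDIA6 and THSD7A, at 0.0782 to 0.215. PRDX1, a peroxiredoxin gene, had 215 and 192 intron counts after randomer, against 322 and 283 after control oligo and 216 after mock transfection.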

How the data were processed

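The authors deposited raw counts per gene symbol, with exons and introns in separate tables. The submitters' processing notes name TopHat2, HTSeq and hg19, but no versions or roles. The sources used here do not give a strand setting for the counting. Rows whose symbols had turned into dates were removed; they held 0.153% to 0.289% of a column. Members, lists and tests were chosen with earlier results of these data known. GENCODE release 29 (GRCh38) gave gene relations, lengths and sequences, and no coordinates are printed, since the builds differ. The deposited counts may rest on other gene models, so counts per kilobase are approximate. Of its names, older symbols were matched through RefSeq synonyms.

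Library sizes were exon totals with TMM factors, also for introns, which keeps a general intron shift. A gene was tested where 2 or more libraries held 10 counts or more. In R 4.3.3, edgeR 4.0.16 fitted the 4 oligo libraries (quasi-likelihood test, time additive), leaving 1 residual degree of freedom. P-values were Benjamini-Hochberg adjusted over all genes. The spread behind them is how far the randomer effect differs between 9 h and 16 h, estimated in part from all genes. It may be technical, and no replicate libraries enter it. No single time was tested. Log2 ratios of members add 0.5 to each count; intervals are exact binomial at 95%. Alternatives used DESeq2 1.42.0, other scalings, no filter, no time term, mock added and a pseudocount of 5. The fits were first tested on simulated data with a dispersion of 0.05. They recovered 14.9% of 2-fold and 88.1% of 4-fold exon changes, and 8.96% and 77.6% of such intron changes. A gene that was not called may thus still differ 2-fold. The simulation used the same dispersion for exons and introns, but the fitted spread was not the same. At similar counts the SE was 0.23 for IARS exons and 0.40 for GNB2L1 introns, so recovery in the real counts may differ. Named genes were the members, SNORA57, the adjacent and overlapping genes, the called genes and the 4 largest changes of each list, the extremes among coding hosts and the 5 most similar profiles; 1 gene under this rule is not reported here. SNX5, COL1A1 and the other genes named for the pairs and markers were chosen after their values were seen.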

Additional observations from a re-analysis of the deposited data

Results flagged for a closer look

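Effects of randomer over control oligo pointed in opposite directions at 9 h and 16 h for 3 rows. For METTL12 introns the log2 ratio was -0.077 at the earlier time and 0.27 at the later, and for the SNORA57 row -0.076 and 0.31. TMEM107 introns had a log2 ratio of -0.71 at 9 h, from 5 counts against 12, and at 16 h a ratio of at least 5.60-fold from 9 counts against the 3-count floor of a library at 0, with an exact interval that starts at a log2 ratio of 1.88. With 1 library per group, the difference between the times was not tested for any of them.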

How the results depend on the processing

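No paired analysis was possible because each group is 1 library and all carry the same replicate number; the time term of the fit already matches the oligo libraries by time. Of 62 values recomputed under alternatives, 45 were graded as unchanged, a grade that allowed sizeable differences on the same side. Among these, the TMEM107 intron log2 ratio of -0.71 at 9 h became -2.14 with TMM factors of the intron table. With a pseudocount of 5 it was -0.29. The TMEM107 intron-to-exon log2 ratio at 9 h differed between randomer and control oligo by -5.65, and by -7.02 when centred on the median gene. For METTL12 introns the log2 ratio at 9 h was -0.0024 with library totals, 0.0141 with exon totals without RN45S, which turns its direction, and -1.51 with TMM factors of the intron table. At 16 h it was 0.19 with library totals, 0.34 without RN45S, 0.12 over mock in place of control oligo and -1.59, a reversed direction, with TMM factors of the intron table, which remove the general intron rise by construction. Its intron-to-exon log2 ratio differed between randomer and control oligo by -2.95 and -2.56 at the 2 times, and by -4.33 and -4.35 when each library was centred on the median gene. The TMEM107 exon log2 ratio at 16 h was 5.47 over mock in place of control oligo. The cause was not tested for the other changes. Exon calls numbered 787 higher and 360 lower, and without the time term 529 higher and 95 lower. Intron calls numbered 5705 higher and 6 lower, with 15 lower without the time term and 10 lower with mock added. They numbered 1858 and 614 with TMM factors of the intron table, and 2047 and 900 with DESeq2. Depth limits TMEM107 introns, at 12 counts or fewer in every library.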

Other observations

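Small RNAs of 1 host differed in their values in EIF4A1. Within it, SNORA67 had 1290 and 603 counts after randomer at 9 h and 16 h, against 20 and 15 after control oligo and 25 after mock transfection. SNORD10, of the same host, had 3606 and 3501 after randomer, against 3627 and 3938 after control oligo and 3438 after mock transfection. EIF4A1 itself, an abundant translation factor, is listed at 0 introns in all 5 libraries. SNORA62, inside RPSA, had 1202 and 3202 counts after randomer, against 13 and 23 after control oligo and 17 after mock transfection. The RPSA introns had 238 and 125 after randomer, against 221 and 216 after control oligo and 194 after mock transfection. Within RPL3, SNORD83A (118 and 89 after randomer, against 42 and 33 after control oligo and 25 after mock transfection) and SNORD83B (169 and 171 after randomer, against 43 and 9 after control oligo and 37 after mock transfection) were both higher after randomer. These rows were chosen after their values were seen and carry no test.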
